A study of Homo sapiens with 4 samples.

Results

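The genes described here are 10 that mark the immature myeloid stage of a blood cell: the transcription factors SPI1, RUNX1, GFI1, IRF8 and MYB, and the granule proteins MPO, ELANE, PRTN3, AZU1 and CTSG. They were taken by symbol from the platform annotation, and 24 of the 54675 probe sets on the array list 1 of them. Of the 10 genes, 9 have at least 1 probe set that lists their symbol alone, out of 19775 genes in all. RUNX1 is listed by 13 probe sets, and each of these also lists LOC101928269 and LOC100506403, so their values are given separately and are not counted as RUNX1. Of the 9 genes, 8 stood above the floor on all 4 arrays. The floor is the median of all scaled signals, 23.8, and signals under it were set to it before a difference was taken. The probe set representing MPO exceeded it on 1 array.

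The study measured RNA in U937, an established human cell line of immature monocyte-like cells that the labels describe as a lymphoma line and the series title as leukemia cells. Cells received Sonazoid, a contrast agent of gas-filled microbubbles, at 0.05% together with 1 min of ultrasound at 0.3 W/cm2 (the combination), the same ultrasound only, the same Sonazoid only, or no treatment (control). Treated cells were then cultured for 3 h, and the labels give no such time for the control. Each of the 4 groups is 1 array, so the number of arrays limits the precision and a difference between 2 arrays has no replicate check.

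As background, PU.1 (the product of SPI1) and the C/EBP factors switch on genes of the granulocyte and monocyte lines. RUNX1 opens the myeloid program in earlier cells, and MYB keeps progenitors dividing. GFI1 is a repressor that favours the neutrophil fate, and IRF8 favours the monocyte fate. At the promyelocyte stage the cells fill their azurophil granules with myeloperoxidase (MPO) and with a family of serine proteases and their relatives: neutrophil elastase (ELANE), proteinase 3 (PRTN3), cathepsin G (CTSG) and azurocidin (AZU1), which is built like a protease but has lost the activity and acts as an antimicrobial protein. AZU1, PRTN3 and ELANE are consecutive protein-coding genes on chromosome 19 in the RefSeq table.

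ELANE, PRTN3, AZU1 and CTSG shared the highest and the lowest array, as described further on, and the promoters of PRTN3, AZU1 and CTSG are shown for that reason. None is shown for ELANE. Each runs from 250 bases before to 50 bases after the start of the gene, 5′ to 3′ on the gene's own strand, from RefSeq on GRCh38.p14: chr19:840749-841048 (plus strand) for PRTN3, chr19:827587-827886 (plus strand) for AZU1 and chr14:24576201-24576500 (minus strand) for CTSG. Capitals mark GGAA, the core bound by PU.1 and other ETS factors, and AACNG, the core bound by MYB, each searched on both strands.
PRTN3: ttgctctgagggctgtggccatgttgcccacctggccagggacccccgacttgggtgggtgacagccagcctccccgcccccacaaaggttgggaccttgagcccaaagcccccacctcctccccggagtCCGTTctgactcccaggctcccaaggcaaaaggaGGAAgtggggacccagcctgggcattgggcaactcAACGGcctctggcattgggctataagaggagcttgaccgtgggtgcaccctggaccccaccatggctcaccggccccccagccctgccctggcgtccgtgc
AZU1: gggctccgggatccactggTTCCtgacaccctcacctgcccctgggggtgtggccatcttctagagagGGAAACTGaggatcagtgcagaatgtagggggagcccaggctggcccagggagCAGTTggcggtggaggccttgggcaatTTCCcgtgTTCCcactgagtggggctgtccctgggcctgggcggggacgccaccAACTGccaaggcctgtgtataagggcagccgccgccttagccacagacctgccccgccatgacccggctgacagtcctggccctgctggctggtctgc
CTSG: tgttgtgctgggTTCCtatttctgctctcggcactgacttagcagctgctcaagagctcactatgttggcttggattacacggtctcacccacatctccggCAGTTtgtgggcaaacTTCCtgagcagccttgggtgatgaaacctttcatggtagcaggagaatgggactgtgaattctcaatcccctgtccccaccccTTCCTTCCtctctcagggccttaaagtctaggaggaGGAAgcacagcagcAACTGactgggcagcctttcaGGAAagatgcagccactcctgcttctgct
GGAA occurred 1 time in PRTN3, 4 times in AZU1 and 6 times in CTSG, and AACNG 2, 3 and 2 times. In AZU1 a GGAA and an AACNG overlap, with first bases at -182 and -179 from the start. Both cores are common: of the 35116 promoters of this length in the table, 95.5% hold GGAA and 77.2% hold AACNG. The RUNX core TGTGGT, which 13.1% of promoters hold, was in none of the 3 sequences. A match is a description of the letters and shows no binding.

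**Figure D1:**
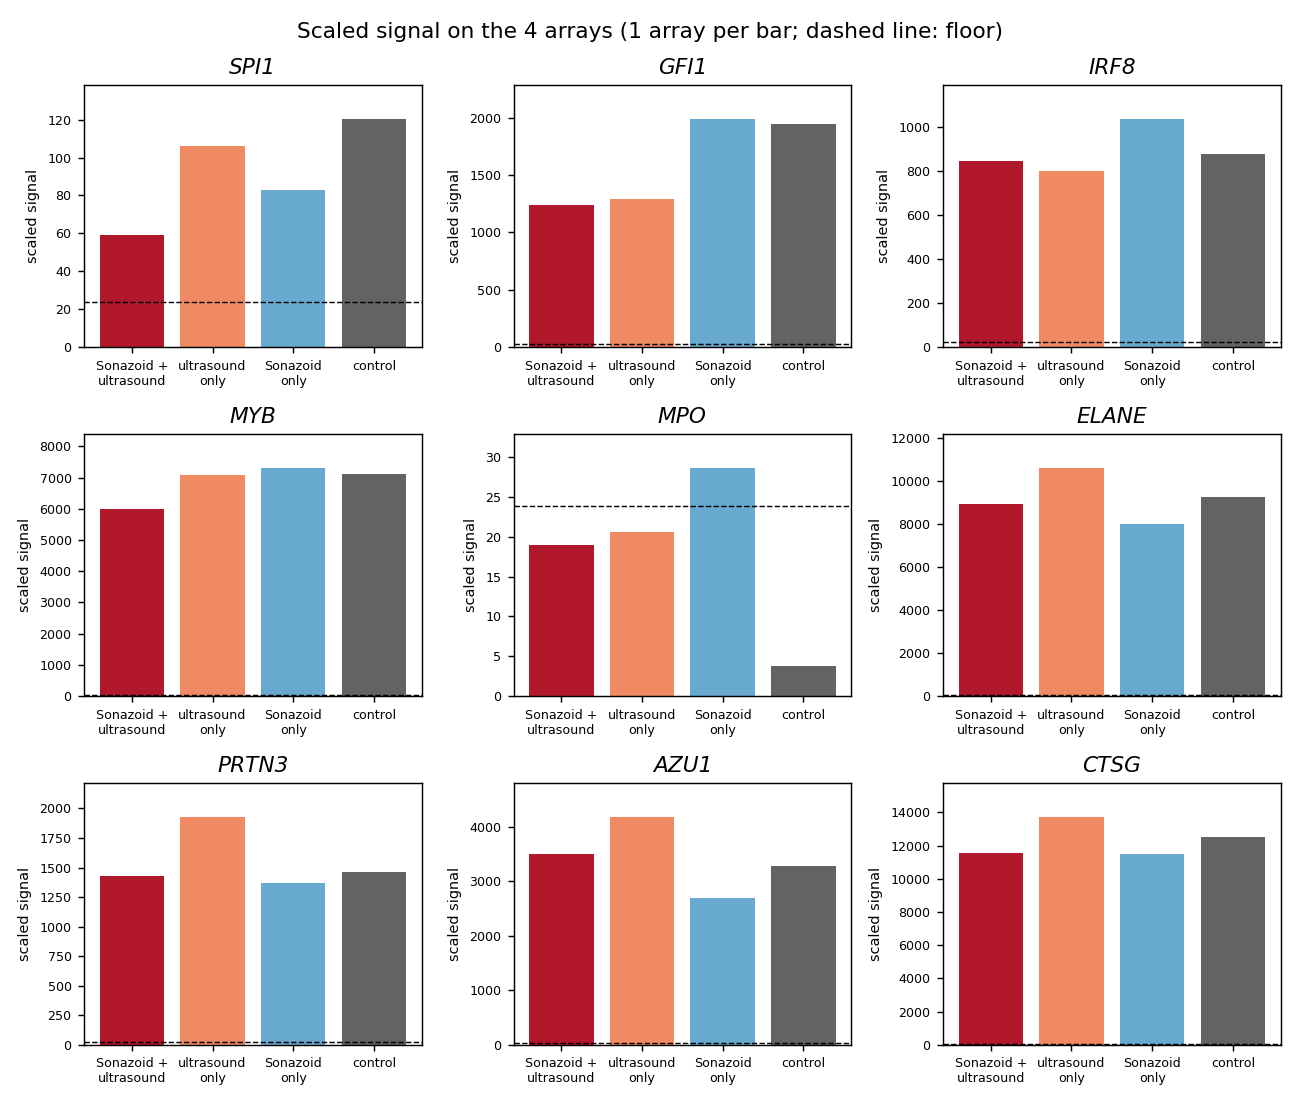
Scaled signal (linear, y axis) of the probe set representing each of 9 genes on the 4 arrays (x axis), 1 array per bar, with the floor of 23.8 as a dashed line. GFI1 is lower on both arrays with ultrasound (1237 and 1293) than on the arrays without (1986 and 1947), ELANE, PRTN3, AZU1 and CTSG are highest with ultrasound only, and MPO exceeds the floor with Sonazoid only (28.6).

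The 4 treatments form a layout of ultrasound and Sonazoid, each absent or present. Each treatment was therefore also tested as 2 arrays with it against 2 without it, in an additive model fitted with limma over the 13965 genes above the floor on at least 1 array, with p-values adjusted over all of them by Benjamini-Hochberg. The model has 1 residual degree of freedom, which holds the departure from additivity, so the spread between cultures given the same treatment was not measured. Error terms are standard errors of this model, which lets the expected spread depend on the signal. In bulk RNA, fewer cells that express a gene and less RNA per cell cannot be told apart. Of the 9 genes, 1 fell (GFI1) and 1 rose (AZU1) with ultrasound. Of all tested genes 1.8% passed, 1.25% higher and 0.559% lower. Among the brightest 25% of genes, which held 7 of the 9, it was 3.95%. At an unadjusted p under 0.05 were 5 of the 9, against 13.5% of tested genes and 24.3% of the brightest 25%.

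GFI1, the repressor, had a scaled signal of 1237 in the combination and 1293 with ultrasound only, against 1986 with Sonazoid only and 1947 in control. Both arrays with ultrasound stood below both arrays without it, as was so for 17.8% of tested genes. The ultrasound term was log2 -0.64 ± 0.07 (SE), 1.56-fold lower, with a limma adjusted p of 0.000286. The log2 differences were -0.68 for the combination against Sonazoid only and -0.59 for ultrasound only against control, 2 differences that share no array. The fall was of similar size under each of the 13 other settings tried (log2 -0.67 to -0.61), but its adjusted p ranged from 5.15e-06 to 0.486 and passed in 7 of them. It did not pass in a limma fit without the signal-dependent spread (adjusted p = 0.486) or with ultrasound as the only factor (adjusted p = 0.0729), nor when any 1 of the 4 arrays was left out (adjusted p = 0.125 to 0.435). With Sonazoid the GFI1 signal differed by log2 -0.02 ± 0.07 (adjusted p = 0.978).

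IRF8, the factor of the monocyte branch, had 845 in the combination and 799 with ultrasound only, against 1035 with Sonazoid only and 875 in control. Its 2 ultrasound arrays were the lowest, as was so for 17.8% of tested genes, although the combination stood close to control. The ultrasound term was log2 -0.21 ± 0.09 and did not pass (adjusted p = 0.32). The combination differed from control by log2 -0.05, and with the values as deposited this sign turned (0.13).

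MYB, the progenitor factor, had 6002 in the combination and 7098 with ultrasound only, against 7308 with Sonazoid only and 7108 in control. Both arrays with ultrasound were below both without it, as for 17.8% of tested genes. Only the combination stood clearly apart, 1.18-fold under control, and ultrasound only was within log2 0.01 of control (-0.0021). The ultrasound term of log2 -0.14 ± 0.07 did not pass (adjusted p = 0.411). The other MYB probe set is dimmer and ran the opposite way, with 183 in the combination and 167 with ultrasound only, against 141 with Sonazoid only and 149 in control. The 2 probe sets thus disagree on the direction with ultrasound.

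SPI1, which encodes PU.1, was dim and rested on 1 probe set. Its signal was 59.3 in the combination, 106 with ultrasound only, 83.0 with Sonazoid only and 120 in control. Both arrays with Sonazoid stood below both arrays without it, as did 16% of tested genes, and the combination was lowest. The Sonazoid term was log2 -0.69 ± 0.27 and the ultrasound term -0.33 ± 0.27, and neither passed (limma adjusted p = 0.459 and 0.676). SPI1 was the 1 of the 8 measured genes at 2-fold or more in the combination against control (log2 -1.02), where 2.26% of measured genes were at 2-fold in either direction and 0.872% were lower. At 1.5-fold it was SPI1 and GFI1 (log2 -0.65), 2 of 8, against 10.5% of measured genes. Among the brightest 25%, which held GFI1 but not SPI1, 1.48% were at 1.5-fold. SPI1 was at log2 -0.85 with the values as deposited and at -0.27 with signals under 100 set to 100.

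The probe sets that list RUNX1, the DNA-binding subunit of core-binding factor, could not be assigned to that gene alone. Of the 13, 7 were above the floor on all arrays, 1 on some and 5 on none. The brightest had 590 in the combination, 619 with ultrasound only, 652 with Sonazoid only and 588 in control, a narrow range. Over the 7, the log2 difference of the combination from control had a median of -0.06, from -0.56 to 0.15, and 2 were above 0. In ultrasound only against control the median was -0.08, and in Sonazoid only against control 0.08, with the lowest at -0.72. The 1 above the floor on some arrays had 56.5 in the combination, 40.9 with ultrasound only, 64.0 with Sonazoid only and 23.5 in control. None of the 8 tested passed when every probe set was tested on its own with limma (lowest adjusted p = 0.817 for ultrasound and 0.411 for Sonazoid), where 1.49% of probe sets passed for ultrasound and 0.0365% for Sonazoid.

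**Figure D2:**
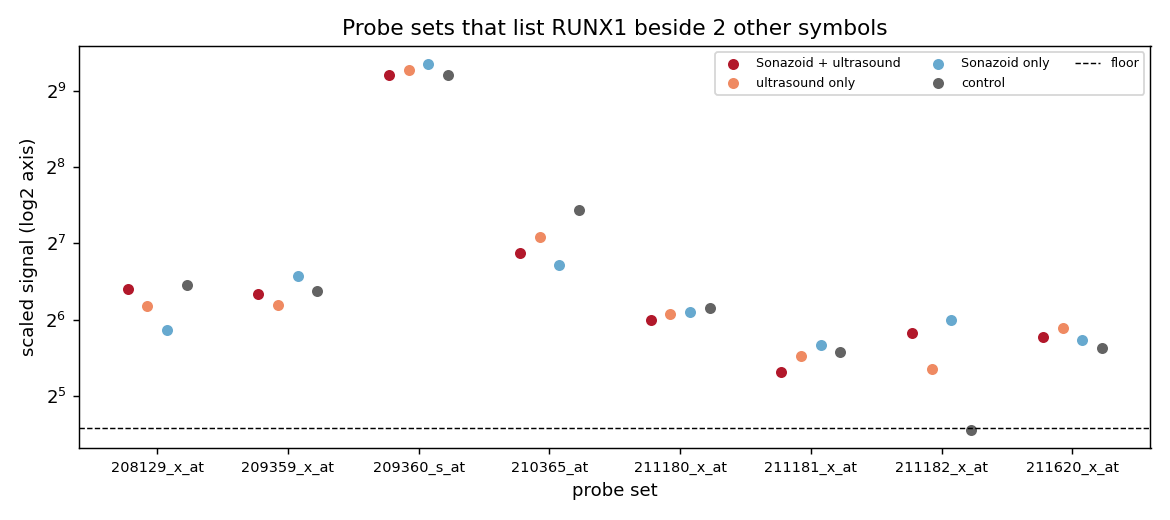
Scaled signal (log2 axis) of the 8 probe sets that list RUNX1 beside 2 other symbols and exceed the floor on at least 3 arrays, with 1 point per array. The brightest lies between 588 and 652 on all 4 arrays, and the dimmer ones differ in which array is highest.

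Of the granule proteins, MPO was near or under the floor. Its representing probe set had 19.01 in the combination, 20.6 with ultrasound only, 28.6 with Sonazoid only and 3.75 in control, and the other had 12.7, 25.9, 16.2 and 5.04. Each exceeded the floor on a different array. The peroxidase transcript was therefore not measurable on at least 3 of the 4 arrays by either probe set, and its differences are bounds set by which array exceeded the floor. By the representing probe set, Sonazoid only was at least 1.2-fold higher than control, and the combination at least 1.2-fold lower than Sonazoid only. By the other, ultrasound only was the high array, by a log2 bound of 0.12 over control, so the probe sets disagree on the array and MPO has no settled direction.

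The 4 members of the serine protease family were bright on every array. AZU1, the azurocidin gene, had 3504 in the combination and 4181 with ultrasound only, against 2698 with Sonazoid only and 3276 in control. Both arrays with ultrasound stood above both without it, as did 18.8% of tested genes, by a small margin between the combination and control. AZU1 rose with ultrasound by log2 0.36 ± 0.06, 1.29-fold, with a limma adjusted p of 0.00865. Its log2 differences were 0.38 for the combination against Sonazoid only and 0.35 for ultrasound only against control. Over 12 other settings the adjusted p ranged from 0.00249 to 0.833 and passed in 4, with log2 values from 0.22 to 0.50. It did not pass with the values as deposited (adjusted p = 0.059), without the signal-dependent spread (0.575), with ultrasound as the only factor (0.475) or when any 1 of the 4 arrays was left out (0.432 to 0.833).

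PRTN3, the proteinase 3 gene, had 1428 in the combination and 1929 with ultrasound only, against 1368 with Sonazoid only and 1463 in control. Ultrasound only stood apart from 3 arrays that were close to each other. It was 1.32-fold above control, whereas the combination was 1.04-fold above Sonazoid only. The departure from additivity was log2 -0.34, where the absolute departure over all tested genes had a median of 0.21 and an upper quartile of 0.42. The ultrasound term of 0.23 ± 0.09 did not pass (adjusted p = 0.247). Left-out arrays moved it, to 0.013 without ultrasound only and 0.45 without the combination.

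ELANE, the neutrophil elastase gene, had 8898 in the combination and 10586 with ultrasound only, against 7974 with Sonazoid only and 9238 in control. The groups with and without ultrasound overlapped, since the combination lay under control. The ultrasound term was log2 0.18 ± 0.06 (adjusted p = 0.18), and 0.052 without the ultrasound only array, 0.071 without Sonazoid only, 0.28 without control and 0.30 without the combination. CTSG, the cathepsin G gene, had 11558 in the combination and 13732 with ultrasound only, against 11470 with Sonazoid only and 12515 in control, and its term of 0.07 ± 0.06 did not pass (adjusted p = 0.689).

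The 4 genes had the same highest and lowest array, ultrasound only and Sonazoid only. This order held for 4 of 4 with the scaled values and with the values as deposited, and for 3 of 4 after quantile normalisation, where CTSG was lowest in the combination. Of the genes above the floor on all arrays, 12.1% had it with the scaled values, 4.03% with the values as deposited and 10.7% after quantile normalisation. Among the brightest 25% of these it was 17.6%, 2.75% and 11.8%. Scaling moved that share, so the order is given with each. The order was not particular to the protease family. Of the other granule proteins and the protease activators and inhibitors named further on, CD63, SRGN, MMP9, CST7 and CST3 had it with the scaled values. RNASE2, LYZ, CTSC and SERPINB1 did not.

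With Sonazoid the same 4 genes had negative terms, log2 -0.27 ± 0.06 for AZU1, -0.27 ± 0.09 for PRTN3, -0.23 ± 0.06 for ELANE and -0.19 ± 0.06 for CTSG. None passed (limma adjusted p = 0.2, 0.342, 0.234 and 0.342). For PRTN3, ELANE and CTSG both arrays with Sonazoid stood below both without it, as did 16% of tested genes, but not for AZU1. With the values as deposited the combination stood above control for PRTN3, ELANE and CTSG. No gene of the 9 passed for Sonazoid, where 0.0143% of tested genes did. At an unadjusted p under 0.05 it was 5 of the 9 (SPI1 and the 4 protease family genes), where 9.28% of tested genes and 16.3% of the brightest 25% were. With the values as deposited the terms were smaller, -0.11 for AZU1, -0.11 for PRTN3, -0.08 for ELANE and -0.03 for CTSG. Leaving out 1 array in turn gave -0.46 to -0.079 for AZU1, -0.46 to -0.066 for PRTN3, -0.33 to -0.13 for ELANE and -0.25 to -0.12 for CTSG. The value nearest to 0 was that without Sonazoid only for AZU1 and without ultrasound only for the other 3.

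**Figure D3:**
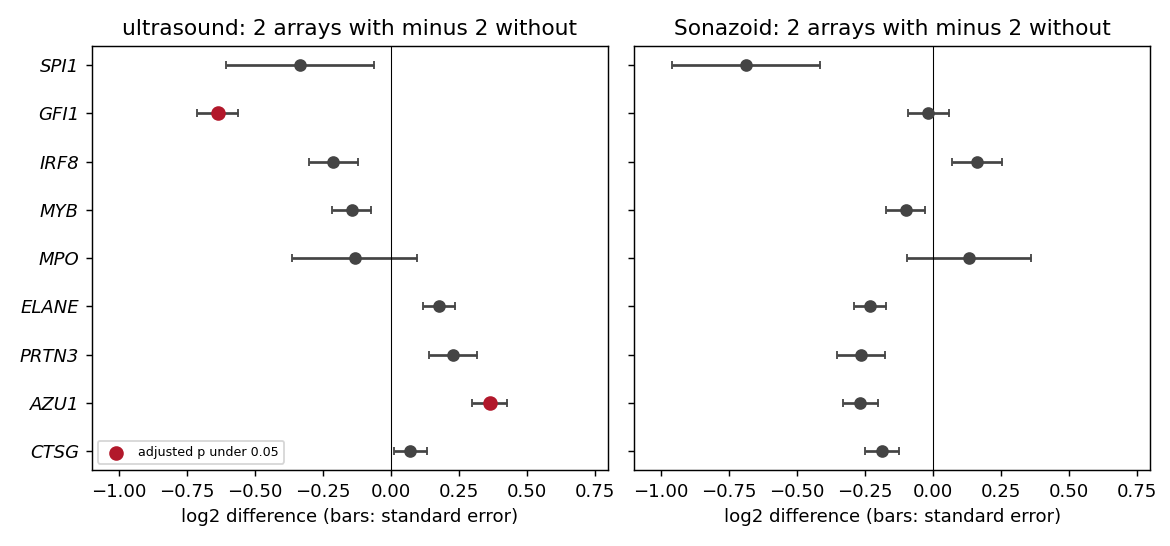
Log2 difference (x axis) of the 2 arrays with each treatment minus the 2 without it, for 9 genes (rows), with standard errors of the additive limma model as bars and red points where the adjusted p is under 0.05. GFI1 (-0.64) and AZU1 (0.36) pass for ultrasound, and no gene passes for Sonazoid. The MPO values rest on 1 array above the floor.

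By role, the 4 regulators with their own probe sets had negative ultrasound terms (median log2 -0.27), of which 1 passed, and the 4 protease family genes positive ones (median 0.20), of which 1 passed. The median of all tested genes was 0.01. MPO is left out, since its term rests on 1 array above the floor. The difference between the 2 groups of genes was not tested, and some signs depended on the setting. MYB was at 0.066 when its probe sets were averaged, and CTSG at -0.0085 after quantile normalisation. With 1 array left out, SPI1 reached up to 0.087 and CTSG down to -0.052. In single comparisons, ultrasound only against control gave a median of -0.16 for the regulators, with MYB at -0.0021, and 0.27 for the protease family. No gene was at 2-fold there, where 2.37% of measured genes were. GFI1 was at 1.5-fold (1.506-fold lower), where 10.8% of measured genes were, but 1.38% of the brightest 25%, which held GFI1. The combination against Sonazoid only gave -0.39 for the regulators and 0.11 for the protease family. Again 0 were at 2-fold, where 2.17% of measured genes were. GFI1 was at 1.5-fold, where 10.2% of measured genes were, but 1.21% of the brightest 25%. Under another scaling CTSG turned sign in the combination against Sonazoid only.

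**Figure D4:**
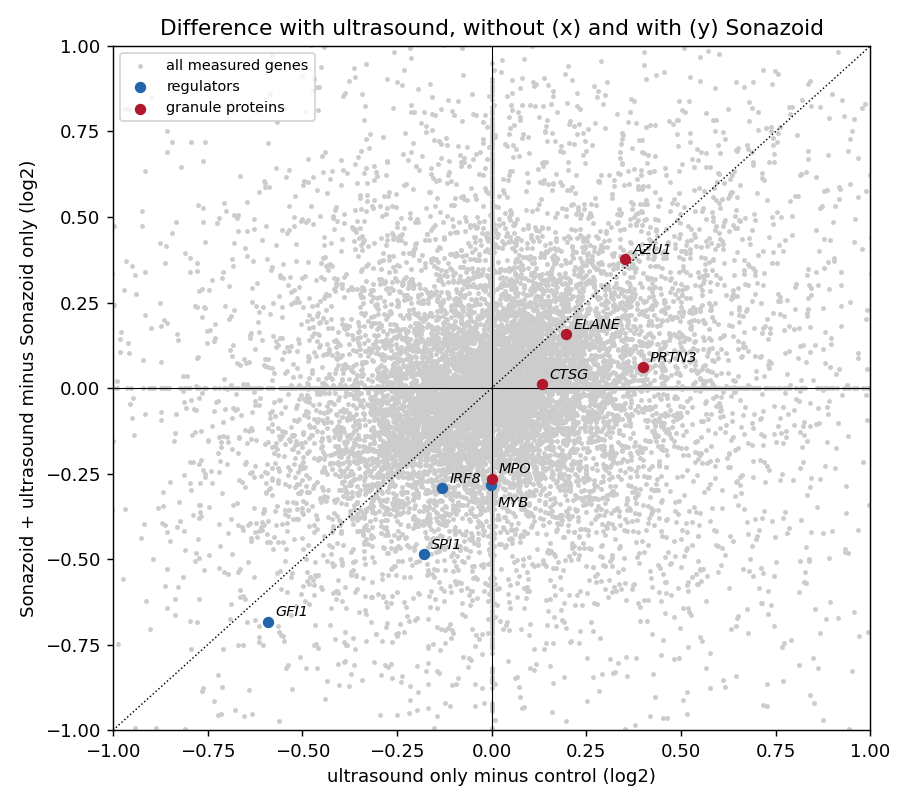
Log2 difference with ultrasound in cells without Sonazoid (ultrasound only minus control, x axis) and with it (combination minus Sonazoid only, y axis) for 9 genes and all 13965 tested genes in grey, of which 531 lie outside the axes. The axes share no array, and GFI1 (-0.59 and -0.68) and AZU1 (0.35 and 0.38) lie near the dotted line of equal differences, whereas PRTN3 (0.40 and 0.06) lies off it.

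Adding Sonazoid to ultrasound went with lower signals of 7 of the 8 measured genes, with a median log2 difference of -0.25 for the combination against ultrasound only, where 52.1% of all measured genes were lower and their median was -0.01. SPI1 was at -0.84, PRTN3 at -0.43, and AZU1, ELANE, CTSG and MYB between -0.25 and -0.24. GFI1 was at -0.06, and IRF8 alone was higher (0.08). No gene was at 2-fold, where 1.86% of measured genes were, and SPI1 was at 1.5-fold, where 10.2% were. This comparison leans on the scaling. With the values as deposited the median of all genes moved by 0.21, to 0.19, and 25.2% of all genes were lower. The median of the 8 was then -0.03, and 6 of them were lower. The 4 protease family genes were between -0.22 and -0.03, and GFI1 turned positive (0.15). Sonazoid only against control gave 0 genes at 2-fold, where 1.37% of measured genes were, and 0 at 1.5-fold (8.25%), with SPI1 at -0.53 and IRF8 at 0.24.

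Genes that work with these were taken from lists of known roles. Among other granule proteins 11 of 15 on the array were measured, and 1 rose with ultrasound: CD63, a granule membrane tetraspanin, with 3616 in the combination and 4200 with ultrasound only, against 3019 with Sonazoid only and 3244 in control (log2 0.32 ± 0.07, limma adjusted p = 0.0261). It passed in 4 of 13 other settings, with adjusted p-values from 0.00897 to 0.764. The share of all tested genes that passed for ultrasound was 1.8%. The list median was 0.15. The brightest others were SRGN, the proteoglycan core that holds proteases in the granule (0.06), RNASE2, a granule ribonuclease (0.15), LYZ, lysozyme (0.07), and MMP9, a gelatinase (0.13).

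Of the activators and inhibitors of the proteases 10 of 12 were measured and 0 passed for ultrasound by limma, nor were any at an unadjusted p under 0.05. Among all tested genes these shares were 1.8% and 13.5%. CTSC, the peptidase that trims the serine proteases into their active form, had 4196 in the combination and 4331 with ultrasound only, against 4401 with Sonazoid only and 4652 in control (log2 -0.09 ± 0.06, adjusted p = 0.617). SERPINB1, an inhibitor of elastase, proteinase 3 and cathepsin G, had a term of -0.06 ± 0.06, CST7, an inhibitor of CTSC, 0.11 ± 0.06, and CST3, cystatin C, 0.11 ± 0.07.

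Among the partner transcription factors 22 of 25 were measured, and 3 rose and 2 fell with ultrasound, where 1.8% of all tested genes passed. KLF4, a factor of monocyte differentiation, had a term of log2 1.76 ± 0.13 (adjusted p = 2.07e-06) and JUN, an AP-1 subunit, 1.32 ± 0.09 (1.01e-06). JUN rested on a probe set that may bind related sequences, and the gene-specific one gave 0.49 (adjusted p = 0.578). ID2, an inhibitor of helix-loop-helix factors, was 0.37 ± 0.06 (0.00814). IKZF1, which encodes Ikaros, fell by 0.38 ± 0.07 on the log2 scale (adjusted p = 0.0146), with 1640 in the combination and 1655 with ultrasound only, against 2137 with Sonazoid only and 2138 in control. The mean of all its probe sets gave -0.07 (adjusted p = 0.895). MYC fell by 0.36 ± 0.07 (0.0126). Over 12 or 13 other settings the adjusted p of these 5 ranged up to 0.562 for KLF4, 0.578 for JUN, 0.7 for ID2, 0.895 for IKZF1 and 0.666 for MYC. CEBPA, the partner of PU.1 in granulocytes, was at -0.06 ± 0.08, CBFB, the partner of RUNX1, at 0.08 ± 0.06, CEBPB at 0.04 ± 0.07 and FLI1 at -0.34 ± 0.09 (adjusted p = 0.0915).

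Of the genes known as targets of PU.1, 11 of 13 were measured, and 0 passed for ultrasound by limma, with 2 at an unadjusted p under 0.05. Among all tested genes these shares were 1.8% and 13.5%. CSF1R, which binds the macrophage growth factor CSF1, was at 2-fold in the combination and in ultrasound only against control, with dim signals of 78.9 in the combination, 93.1 with ultrasound only, 57.1 with Sonazoid only and 32.7 in control (term 0.99 ± 0.32, adjusted p = 0.156). ITGB2, the leukocyte integrin beta chain, was at 0.07, NCF4 at 0.03, BTK at -0.16 and FCER1G at 0.28. Of the 8 targets of MYB, all 8 were measured and 1 fell, MYC, which is in both lists. Their median was -0.15, with CCNB1 at -0.21, CDK6 at -0.26, ADA at 0.01 and CCNE1 at 0.13. For Sonazoid no gene of these lists passed by limma, and at an unadjusted p under 0.05 were 1 other granule protein, 2 activators or inhibitors, 4 partner factors, 1 target of PU.1 and 1 target of MYB.

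Myeloid genes were present on the arrays. LYZ was between 5319 and 5863, CSF2RA between 310.2 and 404.8 and CD4 between 397.6 and 590.3 on the 4 arrays, and 6 of the 10 myeloid markers on the array were above the floor on all 4, while CD14 and FCGR1A, markers of mature monocytes, were under it on all. Of 6 markers of mature neutrophils, CAMP (87.7 to 111.7) and CXCR2 (124.9 to 145.3) were above the floor on all arrays and CEACAM8 and LTF under it on all, with a summed signal over 6 genes of 315 in the combination, 267 with ultrasound only, 255 with Sonazoid only and 283 in control. For ACTB, the ratio of its 3′ to its 5′ probe set ranged from 1.16 to 1.20 over the arrays. For GAPDH it ranged from 0.946 in the combination to 1.01 with ultrasound only.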

How the data were processed

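RNA of U937 cells was hybridised to Affymetrix Human Genome U133 Plus 2.0 arrays after amplification from the 3′ end and biotin labelling, per the labels' protocols. Each array has 1 deposited linear intensity for every probe set (range 0.0486 to 21728), and the sources used here do not name the summarisation software. Array trimmed means (2% removed at each end) differed 1.16-fold, so each array was multiplied by a factor: 0.923 for the combination, 1.07 for ultrasound only, 0.977 for Sonazoid only and 1.04 for control. Signals under 23.8, the median of all scaled values, were set to it, and log2 was taken. Symbols came from the platform annotation, updated by Entrez identifier with RefSeq (GRCh38.p14) for 41037 probe sets. The 11777 probe sets with no symbol and the 1801 with several stayed out of the counts of genes, as did 62 control probe sets. Each gene was its brightest probe set by mean signal. The 5 comparisons between single arrays have no test. The additive model (limma 3.58.1, R 4.3.3, eBayes with trend) was also run on simulated data. The simulated spread depended on the signal alone, as the model assumes, so that run does not check the p-values of these arrays. Genes named are all members, list genes called or at 2-fold, and otherwise the 4 brightest of each list. The members and lists were chosen with earlier results of these data known. No member or list gene was named for a similar pattern, since 4 arrays give no usable measure of it. The promoters shown were chosen because their genes shared the highest and the lowest array. The marker genes under other observations were picked after their values were seen, and TPSAB1 is described there by its highest and lowest array. Other scalings, floors, probe set rules, fold limits and models were tried. The labels name no separate cultures, so the p-values do not measure a spread between cultures. In the additive model they rest on the departure from additivity of each gene, combined with the spread expected at its signal.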

Additional observations from a re-analysis of the deposited data

Results flagged for a closer look

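With the scaled values, the sign of the difference with Sonazoid was opposite in cells with and without ultrasound for 2 of the 8 genes above the floor on all arrays. MYB differed by log2 -0.24 between the combination and ultrasound only, and by 0.040 between Sonazoid only and control. GFI1 differed by -0.063 between the combination and ultrasound only, and by 0.029 between Sonazoid only and control. The difference between the 2 values was not tested, since each rests on 1 array a side. The share of all genes with opposite signs was not counted, so 2 of 8 cannot be read as a result about these genes. The departure from additivity was log2 -0.28 for MYB and -0.09 for GFI1. Over all tested genes the absolute departure had a median of 0.21 and an upper quartile of 0.42. With the values as deposited the MYB values were -0.026 and 0.13. The other, dimmer MYB probe set had both signs the other way round, 0.13 between the combination and ultrasound only and -0.077 between Sonazoid only and control. With the values as deposited both GFI1 values were positive (0.15 and 0.12).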

How the results depend on the processing

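The number of members at 2-fold in the combination against control was 1, and was 0 with the values as deposited, 0 with signals under 100 set to 100, 2 with no floor and 2 at 1.5-fold. It was 0 in the other 4 comparisons. With no floor it was 1 in ultrasound only against control and 1 in Sonazoid only against control, each MPO with its control signal of 3.75. At 1.5-fold it was 1 in ultrasound only against control (GFI1), 1 in the combination against ultrasound only (SPI1) and 1 in the combination against Sonazoid only (GFI1). The 2 members called for ultrasound became 1, GFI1, with the values as deposited, with the mean of the probe sets and with gene-specific probe sets, where AZU1 has none. They became 0 without the signal-dependent spread and with ultrasound as the only factor, and 0 when any 1 array was left out in a fit of the other 3 with 1 factor, where a lone array is assumed to vary like the rest. The cause was not tested. With all arrays kept, signs that turned in the ultrasound term were those of CTSG (-0.0085 after quantile normalisation), MPO (0.93 with no floor, 0.059 with gene-specific probe sets) and MYB (0.066 as the mean of its probe sets). In the Sonazoid term they were GFI1 (0.14) and MYB (0.053) with the values as deposited and MPO (-0.059) with gene-specific probe sets. Leaving out 1 array gave -0.75 to 0.087 for SPI1 and -0.052 to 0.20 for CTSG with ultrasound, and -0.36 to 0.32 for GFI1 (0.28 without control) and -0.24 to 0.041 for MYB with Sonazoid; no such value passed. The ultrasound term called 252 of all genes, but 444 after quantile normalisation, 57 with the mean of probe sets, 64 with gene-specific ones, 23 with ultrasound as the only factor, 491 of all probe sets and 0 without the signal-dependent spread (1160 at an unadjusted p under 0.05). The Sonazoid term called 2, but 47 after quantile normalisation, 17 with no floor, 15 with the values as deposited and 12 of all probe sets. With the values as deposited the median of all genes moved by 0.17 (log2) in the combination against control, where 19.6% of the genes at 2-fold were lower instead of 38.6%. No paired analysis was possible because each group is 1 array. The number of arrays limits the precision, and dim signals such as that of SPI1 had larger standard errors (0.27) than GFI1 (0.075).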

Other observations

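Marker genes of other blood cells had signals from bright to under the floor. TPSAB1 encodes a tryptase of mast cells and basophils. Its scaled signal was 1216 in the combination and 1407 with ultrasound only, against 855 with Sonazoid only and 997 in control. With the scaled values its highest and lowest array were thus those of the proteases above, as for 12.1% of genes above the floor on all arrays. With the values as deposited its highest array was the combination, unlike the proteases. PRG2, the major basic protein of eosinophils, had 53.3 in the combination, 58.5 with ultrasound only, 57.2 with Sonazoid only and 78.4 in control. CPA3, the mast cell carboxypeptidase, and CLC, the Charcot-Leyden crystal protein, were under the floor on all arrays. NKG7, a granule membrane protein of T and NK cells, had 3197 in the combination and 3160 with ultrasound only, against 2771 with Sonazoid only and 2920 in control, while CD3D and GNLY were under the floor. CAMP, the cathelicidin of neutrophil granules, had 112 in the combination and 103 with ultrasound only, against 87.7 with Sonazoid only and 104 in control. These genes were picked after their values were seen, from lists of markers, and were not tested.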
